A study of Mus musculus with 4 samples.

Results

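Neutrophils are among the most numerous white cells of the marrow, and marrow fills the spaces of the calvarial bones. They mature in steps that each leave a mark on the RNA. Promyelocytes make the proteases and the peroxidase of the azurophil (early) granules. Myelocytes and metamyelocytes make the iron-binding and antimicrobial proteins of the specific granules. The last stages carry receptors for bacterial peptides and cytokines together with the cytosolic protein calprotectin. The genes described here are 35 neutrophil granule and maturation genes, named by symbol. Of these, 34 were measured among 23946 genes and *Ly6g* was not analysed here. They were placed in 4 lists, with 6 early granule genes, 10 specific granule genes, 9 late maturation genes (10 named) and 9 genes that neutrophils share with monocytes. The genes and the lists were chosen with earlier results of these data known.

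The libraries came from bone of C57BL/6J mice at postnatal day 21, and the study asked how loss of 1 *Twist1* allele acts on frontal bone, which derives from the neural crest, and parietal bone, which derives from mesoderm. There were 4 groups: wild-type frontal, wild-type parietal, *Twist1*+/- frontal and *Twist1*+/- parietal bone, with RNA from 12 mice per strain and 1 sample per group. The heterozygous mice carried the *Twist1* mutation in the germline, so it was present in blood cells as well as bone cells. Each sample is 1 set of values and is called a library here. The methods of the study mention replicates, and whether a value combines several libraries or mice is not given in the sources used here. RNA was taken from bone without sorting, so marrow and bone cells were read together. The study describes the parietal bones as including pericranium and dura mater besides the bone plate, so cells of these tissues were read as well. As every group had a single set of values, differences could not be set against a replicate spread and were not tested. Values are FPKM (fragments scaled to the length of the transcript and to the number of mapped reads), so levels can be compared between genes.

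Where 4 values follow each other, they stand in the order wild-type frontal, wild-type parietal, *Twist1*+/- frontal and *Twist1*+/- parietal. The targeted gene *Twist1* was at 59.02, 52.5, 30.4 and 50.7 FPKM, so the library labelled *Twist1*+/- parietal differed from wild-type parietal bone in *Twist1* by a log2 ratio of only -0.05, while the frontal libraries differed by -0.96, and directions given for it rest on its label. The FPKM worth of 1 read, taken from the ratio at which low values gather, was 1.73 times as large in wild-type parietal as in wild-type frontal bone (608 genes) and nearly the same in both parietal libraries (0.986, 513 genes), so a given FPKM value rested on more reads in wild-type frontal bone. All 34 genes were at or above 1 FPKM in every library, and 30 reached 10 FPKM in at least 1 library. The label of bone was checked with 11 osteoblast and osteocyte genes, all above 0 in every library, with a summed level of 13272 to 21439 FPKM.

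The neutrophil genes formed a common pattern over the libraries. Of the 34 genes, 31 had their lowest level in wild-type parietal bone, against 34.8% of all genes that reached 1 FPKM in at least 1 library, and 29 had their highest level in *Twist1*+/- frontal bone, against 15.5% of all genes. In 28 of them the order was wild-type parietal, then the library labelled *Twist1*+/- parietal, then both frontal libraries, an order that 17.4% of all genes showed. The exceptions to the low value in wild-type parietal bone were *Il1b*, *Fpr2* and *Anxa1*. In bulk RNA, fewer neutrophils and less of these RNAs per neutrophil cannot be told apart.

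**Figure D1:**
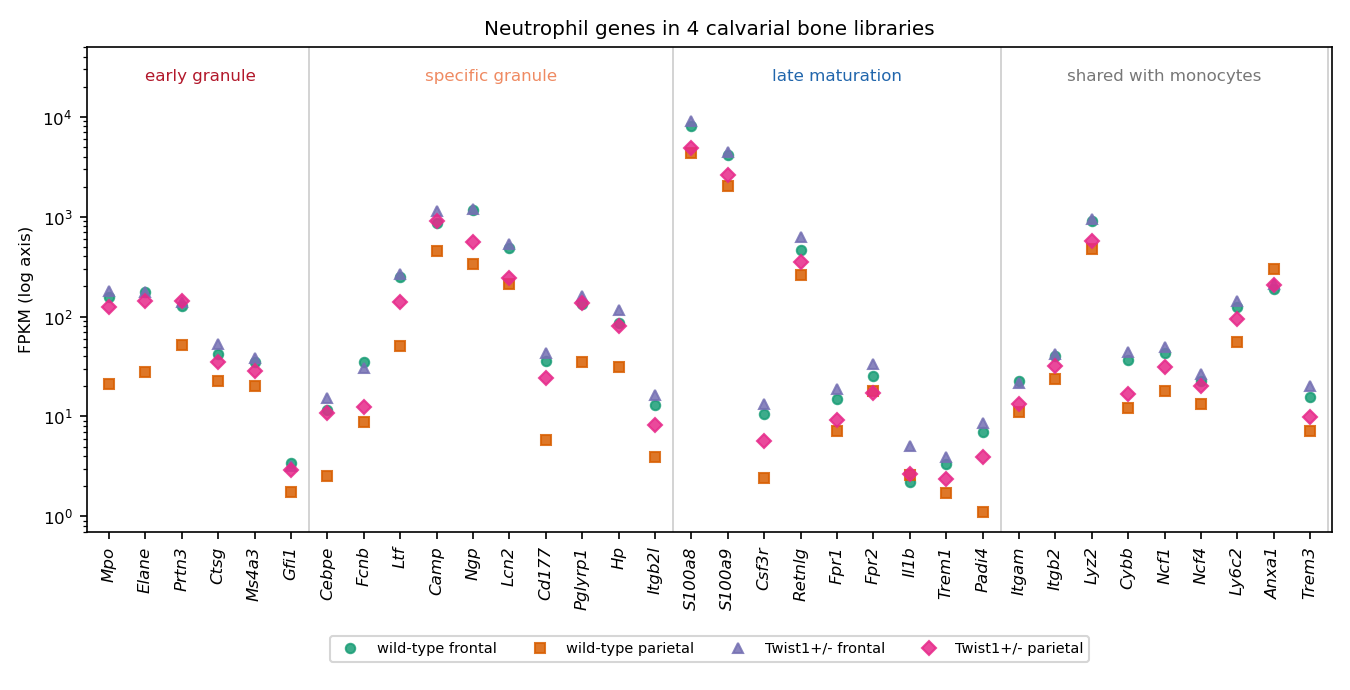
Level of each of the 34 neutrophil genes in FPKM (log axis) in the 4 libraries, 1 point per gene and library, grouped by stage list. The squares of wild-type parietal bone are the lowest points for 31 genes, and *Anxa1* is the only gene with its highest point there.

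Among the early granule genes, *Mpo* and *Elane* were far lower in wild-type parietal bone than in the other libraries. *Mpo*, which encodes myeloperoxidase, the enzyme that makes hypochlorous acid from hydrogen peroxide, was at 157, 21.2, 181 and 126 FPKM. Wild-type parietal bone stood apart from the other 3 libraries, 7.44-fold below wild-type frontal bone (log2 ratio -2.89) and 5.94-fold below the library labelled *Twist1*+/- parietal. *Elane*, neutrophil elastase, was at 175, 27.8, 177 and 144 FPKM. It followed *Mpo*, with a log2 ratio of -2.65 between the wild-type bones and 2.37 between the parietal bones. *Prtn3*, proteinase 3, is the neighbour of *Elane* and was at 127, 51.6, 139.7 and 144 FPKM. Its drop in wild-type parietal bone was smaller (2.47-fold), and it was the only one of the 34 genes with its highest value in the library labelled *Twist1*+/- parietal.

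In mm9, *Prtn3* lies on chromosome 10 from 79337221 to 79345919 and *Elane* on chromosome 10 from 79349057 to 79350961, 3.14 kb apart on the same strand. *Mpo* lies on chromosome 11 from 87607083 to 87617915, and *Mpo* and *Prtn3* each overlap a gene on the other strand, whose reads may have been counted with theirs since the strand setting is not given. The sequences of 250 bases before the RefSeq start of these protease and peroxidase genes (build GRCm38.p6) are shown because *Mpo* and *Elane* had the lowest ratios of the 34 genes between the wild-type bones, with *Prtn3* as the neighbour of *Elane*, and because each window holds GAGGAA, the core of the site of PU.1, a factor of myeloid cells. Capitals mark each match to GAGGAA.
*Mpo*, chr11:87793534-87793783 (+ strand): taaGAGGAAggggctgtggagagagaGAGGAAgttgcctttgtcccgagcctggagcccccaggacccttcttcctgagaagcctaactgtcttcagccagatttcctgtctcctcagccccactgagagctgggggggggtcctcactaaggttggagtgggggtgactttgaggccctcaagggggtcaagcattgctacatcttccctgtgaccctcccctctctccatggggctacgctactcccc
*Elane*, chr10:79886062-79886311 (+ strand): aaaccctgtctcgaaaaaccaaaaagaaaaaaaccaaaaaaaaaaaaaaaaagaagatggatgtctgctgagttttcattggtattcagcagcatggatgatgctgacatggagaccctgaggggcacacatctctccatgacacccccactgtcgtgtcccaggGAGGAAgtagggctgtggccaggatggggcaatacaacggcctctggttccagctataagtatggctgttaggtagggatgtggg
*Prtn3*, chr10:79879417-79879666 (+ strand): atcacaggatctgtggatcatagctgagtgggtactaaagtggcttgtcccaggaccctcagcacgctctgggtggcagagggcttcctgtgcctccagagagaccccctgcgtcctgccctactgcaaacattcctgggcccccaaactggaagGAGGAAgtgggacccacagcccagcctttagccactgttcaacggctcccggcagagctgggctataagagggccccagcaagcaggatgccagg
The match begins 85 bases before the start in *Elane* and 95 bases before it in *Prtn3*, and *Mpo* has matches that begin 247 and 224 bases before the start. A match is a description of the letters and gives no measure of binding.

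The other early genes differed less. *Ctsg*, cathepsin G, a further serine protease of the same granules, was at 42.2, 22.8, 53.02 and 34.9 FPKM. *Ms4a3*, a membrane protein of granulocyte and monocyte progenitors, was at 34.8, 20.2, 38.5 and 28.6 FPKM. *Gfi1*, a transcriptional repressor needed for neutrophil formation, was at 3.42, 1.75, 3.16 and 2.89 FPKM. All 3 were lowest in wild-type parietal bone, but by 1.85-, 1.72- and 1.95-fold against wild-type frontal bone, which is inside the 3-fold threshold. The summed level of the 6 early genes was 540.3, 145, 593 and 481 FPKM.

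Specific granule genes were lower in wild-type parietal than in wild-type frontal bone for all 10 genes. *Cebpe*, the transcription factor on which specific granules depend, was at 11.7, 2.54, 15.2 and 10.9 FPKM. Its log2 ratio was -2.20 between the wild-type bones and 2.11 between the parietal bones. *Ltf*, the iron-binding lactoferrin, was at 250.5, 50.4, 269 and 140.2 FPKM. Its value in the library labelled *Twist1*+/- parietal lay between wild-type parietal bone and the frontal libraries. *Cd177*, a surface protein that binds proteinase 3, was at 35.5, 5.75, 43.1 and 24.1 FPKM and had the widest gap of this list (6.18-fold between the wild-type bones). *Pglyrp1*, which binds bacterial peptidoglycan, was at 135, 34.7, 161 and 136 FPKM. *Hp*, haptoglobin, which binds free haemoglobin, was at 85.9, 31.2, 116 and 81.4 FPKM. In *Cebpe*, *Pglyrp1* and *Hp*, the library labelled *Twist1*+/- parietal was close to wild-type frontal bone and far from wild-type parietal bone.

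Of the other specific granule genes, *Ngp*, *Lcn2* and *Fcnb* stayed low in both parietal libraries. *Ngp*, neutrophilic granule protein, was at 1159.5, 339, 1205 and 564 FPKM. *Lcn2*, lipocalin 2, which binds bacterial siderophores, was at 481, 213, 536 and 246 FPKM. *Fcnb*, the lectin ficolin B, was at 34.7, 8.76, 30.3 and 12.6 FPKM. In these 3 genes the library labelled *Twist1*+/- parietal was more than 2-fold below *Twist1*+/- frontal bone, with log2 ratios of -1.10, -1.12 and -1.27, and nearer to wild-type parietal bone than in *Mpo* or *Elane*. *Itgb2l*, an integrin beta chain related to *Itgb2*, was at 13.1, 3.96, 16.3 and 8.27 FPKM. *Camp*, the precursor of the antimicrobial peptide cathelicidin, was at 867, 452, 1149 and 899 FPKM. *Camp* differed least between the wild-type bones (1.92-fold). *Cd177* shared 2.12% of the 75-base windows of its transcript with another gene, and the other 9 specific granule genes shared none.

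The windows before *Ltf* and *Ngp* are printed because they hold TTGCNNAA, read on either strand, a form of the site of the C/EBP factors to which *Cebpe* belongs. Capitals mark that motif in both genes and, in *Ltf*, also a match to GAGGAA. Positions are in GRCm38.p6.
*Ltf*, chr9:111019042-111019291 (+ strand): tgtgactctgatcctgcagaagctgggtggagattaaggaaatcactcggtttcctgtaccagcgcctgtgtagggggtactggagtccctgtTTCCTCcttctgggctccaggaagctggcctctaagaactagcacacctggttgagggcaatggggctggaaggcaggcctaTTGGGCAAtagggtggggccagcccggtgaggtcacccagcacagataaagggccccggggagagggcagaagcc
*Ngp*, chr9:110419558-110419807 (+ strand): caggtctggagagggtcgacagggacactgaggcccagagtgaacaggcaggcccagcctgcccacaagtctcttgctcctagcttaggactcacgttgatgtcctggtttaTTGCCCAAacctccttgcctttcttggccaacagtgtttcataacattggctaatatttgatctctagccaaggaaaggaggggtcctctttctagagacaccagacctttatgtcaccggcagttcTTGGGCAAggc
Of the 35 named genes, 30 had a window in the RefSeq table. TTGCNNAA on either strand was found in 9 of these 30 (30.0%) against 9.55% of the windows of all 27025 genes, and GAGGAA in 17 of 30 (56.7%) against 23.1%. By list, GAGGAA was found in 4 of 6 early, 5 of 8 specific, 5 of 10 late and 3 of 6 shared genes, and TTGCNNAA in 1, 4, 3 and 1 of them. *Cebpe*, *Hp*, *Itgb2*, *Ncf4* and *Trem3* had no entry.

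The late maturation genes included the most abundant transcripts. *S100a8* and *S100a9* encode the subunits of calprotectin, which sequesters zinc and manganese. *S100a8* was at 8034, 4373, 9048 and 4924 FPKM, and ranked 2, 14, 4 and 10 among all genes of the libraries. *S100a9* was at 4183, 2007, 4448 and 2606 FPKM. Both were lower in the parietal libraries, by 1.84- and 2.08-fold between the wild-type bones. Between the parietal bones they differed little, with log2 ratios of 0.17 and 0.38. The genes lie 22.6 kb apart on chromosome 3 of mm9, *S100a8* from 90472993 to 90473956 and *S100a9* from 90496554 to 90499643, on opposite strands.

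*Retnlg*, a resistin-like secreted protein of neutrophils, was at 461, 259, 622 and 349.8 FPKM and had the same shape. *Fpr1* and *Fpr2*, receptors for formylated bacterial peptides, lie 3.88 kb apart on chromosome 17. *Fpr1* was at 14.8, 7.21, 18.98 and 9.27 FPKM and *Fpr2* at 25.1, 17.8, 33.3 and 17.2 FPKM. *Fpr2* was the only late gene lowest in the library labelled *Twist1*+/- parietal, and that value was close to wild-type parietal bone. *Trem1*, a receptor that amplifies inflammatory signals, was at 3.32, 1.71, 3.97 and 2.35 FPKM.

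*Csf3r* and *Padi4* departed from the rest of the late list. *Csf3r*, the receptor for granulocyte colony-stimulating factor, was at 10.6, 2.43, 13.3 and 5.69 FPKM. *Padi4*, the enzyme that citrullinates histones when neutrophils release their chromatin, was at 6.998, 1.11, 8.59 and 3.96 FPKM. They were 4.36- and 6.29-fold lower in wild-type parietal than in wild-type frontal bone, beyond every other late gene. *Il1b*, the cytokine interleukin 1 beta, was at 2.22, 2.62, 5.01 and 2.64 FPKM. It was the only member lowest in wild-type frontal bone besides *Anxa1*, and its high value was that of *Twist1*+/- frontal bone.

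Among genes shared with monocytes, *Lyz2*, lysozyme, was at 898, 477, 945 and 570.2 FPKM. It shared 5.97% of its 75-base windows with another transcript, chiefly *Lyz1*. The integrin chains *Itgam* and *Itgb2* pair to form the adhesion receptor Mac-1. *Itgam* was at 22.6, 11.02, 21.8 and 13.3 FPKM and *Itgb2* at 40.3, 23.8, 42.2 and 32.2 FPKM. Both were lowest in wild-type parietal bone. The subunits of the oxidase that makes superoxide were also lowest there. The catalytic membrane subunit *Cybb* was at 37.1, 12.1, 44.4 and 16.7 FPKM. The cytosolic subunits were at 43.4, 17.9, 49.7 and 31.1 FPKM for *Ncf1* and 22.9, 13.2, 26.5 and 20.01 FPKM for *Ncf4*. *Cybb* stayed low in both parietal libraries (log2 ratio of -1.62 in wild-type and -1.41 in *Twist1*+/- bone), while *Ncf4* was at -0.79 and -0.41.

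*Ly6c2*, a surface antigen of monocytes and young neutrophils, was at 124, 55.1, 143 and 94.2 FPKM, but 22.7% of its windows occur in *Ly6c1*, so reads may have been split between these copies. *Trem3*, next to *Trem1*, was at 15.5, 7.11, 20.1 and 9.93 FPKM. *Anxa1*, annexin A1, which dampens neutrophil entry into tissue and is made by many cell types, was at 189, 301, 211 and 208 FPKM. It was the only gene highest in wild-type parietal bone.

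Between wild-type parietal and wild-type frontal bone, 12 of the 34 genes (35.3%) were more than 3-fold lower and none was more than 3-fold higher. Among all 14214 genes at or above 1 FPKM in either library, 9.2% were more than 3-fold lower. By list, 2 of 6 early genes, 7 of 10 specific genes, 2 of 9 late genes and 1 of 9 shared genes passed. At 2-fold the count was 21 of 34 (61.8%) against 15.6% of all genes, and 32 of 34 were lower by any amount, against 50.5%. The median log2 ratio was -1.13 for the early, -1.87 for the specific, -0.96 for the late and -1.04 for the shared genes, and -0.01 over all 14120 genes above 0 in both libraries. The specific granule list was thus furthest from the median of all genes, while *Mpo* and *Elane* of the early list had lower ratios than any specific granule gene. When the libraries were scaled to *Gapdh*, 33 of 34 genes were lower, as *Il1b* changed direction.

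Between the library labelled *Twist1*+/- parietal and wild-type parietal bone, the direction was the opposite. This comparison shares the wild-type parietal library with the one between the wild-type bones, so both draw on the same low values. Here 6 of 34 genes (17.6%) were more than 3-fold higher, against 5.25% of all genes, and none was more than 3-fold lower. They were *Mpo*, *Elane*, *Cebpe*, *Cd177*, *Pglyrp1* and *Padi4*, with log2 ratios of 2.57, 2.37, 2.11, 2.07, 1.97 and 1.83. At 2-fold 11 of 34 were higher (32.4%) against 10.8% of all genes, and 32 of 34 were higher by any amount, against 46.9%. The medians were 1.10 for the early, 1.22 for the specific, 0.38 for the late and 0.47 for the shared genes, and -0.06 over all genes. With the trend of GC content over all genes taken off, 3 of 33 genes with a GC value stayed past 3-fold. *Fpr2* changed direction with scaling to *Gapdh*, and *Fpr2* and *Anxa1* did with scaling to 10 reference genes.

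Between *Twist1*+/- and wild-type frontal bone the neutrophil genes differed little. None of the 34 passed 3-fold in either direction, against 3.89% of all genes. *Il1b* was the only gene past 2-fold (log2 ratio 1.17), which is 2.94% of the list against 4.98% of all genes that were more than 2-fold higher. Slightly higher values were common, in 31 of 34 genes against 44.6% of all genes, with medians of 0.14 for the early, 0.26 for the specific, 0.32 for the late and 0.20 for the shared list and -0.04 over all genes. When both libraries were set to the same *Gapdh* level, 26 of 34 were higher, and *Elane*, *Ngp*, *S100a9*, *Itgb2* and *Lyz2* changed direction.

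Between the *Twist1*+/- bones, the library labelled parietal was lower for 33 of 34 genes, against 52.4% of all genes. None passed 3-fold, against 4.09% of all genes, and 8 of 34 (23.5%) were more than 2-fold lower, against 8.92%. These were *Fcnb*, *Ngp*, *Lcn2*, *Csf3r*, *Fpr1*, *Padi4*, *Cybb* and *Trem3*, and none is an early granule gene. *Prtn3*, the exception to the lower values, changed direction with scaling to reference genes. The medians were -0.36 for the early, -0.89 for the specific, -0.93 for the late and -0.68 for the shared genes, and -0.03 over all genes.

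**Figure D2:**
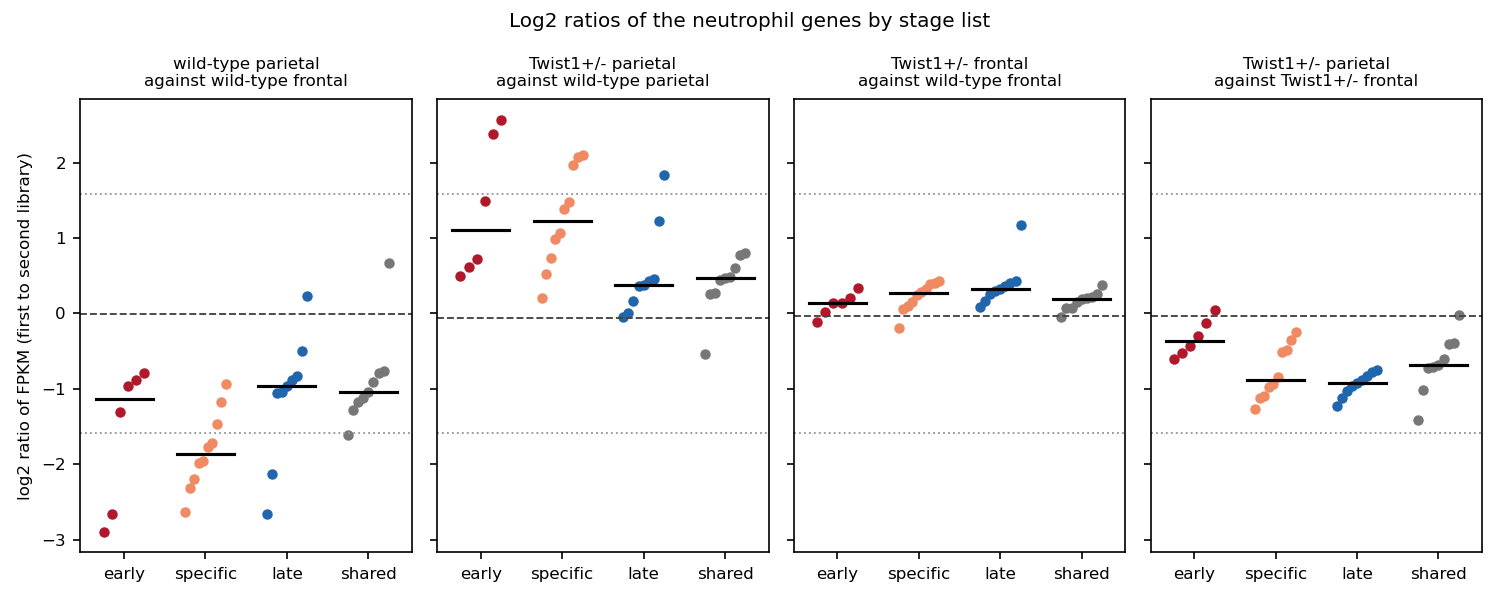
Log2 ratio of FPKM for each gene (points) by stage list in the 4 comparisons, with the median of each list (black bars), the median of all genes (dashed line) and the 3-fold threshold (dotted lines). Specific granule genes have the lowest median (-1.87) between the wild-type bones, and the median of the early list lies above that of the late list in both comparisons of the library labelled *Twist1*+/- parietal.

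Early and late genes were then set against each other. The difference between the median log2 ratio of the late and of the early list does not depend on how a library is scaled. It was 0.18 between the wild-type bones and 0.19 between the frontal bones. In the comparisons of the library labelled *Twist1*+/- parietal it was -0.73 against wild-type parietal bone and -0.56 against *Twist1*+/- frontal bone. By these medians early genes thus stood higher relative to late genes in that library than in either library it was compared with. After subtraction of the GC trend, with 5 early genes that have a GC value, the differences were 0.03, 0.23, -0.28 and -0.07, in the order of wild-type bones, frontal bones, parietal bones and *Twist1*+/- bones. With summed FPKM in place of medians they were 0.96 between the wild-type bones and -1.48 between the parietal bones. The GC step left out *Gfi1*. Between the parietal bones the median of the other 5 early genes was 1.48 before that step, against 1.10 for all 6.

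Ratios within a library set 1 of the 9 late genes, *S100a8*, against each early gene. The ratio of *S100a8* to *Mpo* was 51.03, 207, 49.95 and 39.2, and that of *S100a8* to *Elane* was 45.9, 157, 51.1 and 34.1. In both, wild-type parietal bone stood far above the other libraries, but these are the early genes with the largest drop there. The ratio of *S100a8* was 63.1, 84.7, 64.7 and 34.1 to *Prtn3*, 191, 192, 171 and 141 to *Ctsg*, 231, 216, 235 and 172 to *Ms4a3* and 2351, 2496, 2859 and 1705 to *Gfi1*. Wild-type parietal bone did not stand apart in the last 3 of these, while the library labelled *Twist1*+/- parietal had the lowest ratio of *S100a8* to each of the 6 early genes. This does not hold for every late gene. Between the parietal bones the log2 ratios of *Csf3r* (1.23) and *Padi4* (1.83) were above those of *Ctsg* (0.61), *Ms4a3* (0.50) and *Gfi1* (0.72). The remaining late genes were below all early genes there. Some ratios hardly moved. *S100a8* to *S100a9* was at 1.92, 2.18, 2.03 and 1.89, *Trem3* to *Trem1* at 4.68, 4.15, 5.08 and 4.23 and *Itgam* to *Itgb2* at 0.561, 0.463, 0.516 and 0.412, a spread of at most 1.36-fold over the libraries. Genes of 1 granule type did not hold their ratios as well. *Prtn3* to *Elane* was at 0.727, 1.85, 0.789 and 1.001, although *Mpo* to *Elane* was at 0.899, 0.761, 1.02 and 0.872. *Ctsg* to *Elane* was at 0.241, 0.819, 0.299 and 0.242, and *Ms4a3* to *Mpo* at 0.221, 0.956, 0.212 and 0.227. In both, wild-type parietal bone had the highest ratio of the 4 libraries. *Camp* to *Ngp* was at 0.748, 1.33, 0.954 and 1.59, higher in both parietal libraries than in both frontal libraries.

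GC content moved with these ratios. Over all genes the log2 ratio between the parietal bones rose with the GC content of the transcript (Spearman rho 0.546 across 12554 genes), and over 33 of the 34 genes with a GC value it did so too (rho 0.775). Between the wild-type bones the values were -0.134 (12852 genes) and -0.635 (33 genes). These are descriptions across genes read in the same libraries. The median GC content was 56.4% for the early, 54.0% for the specific, 46.2% for the late and 50.3% for the shared list, so the early and late lists differ in it. *Ms4a3* had 39.99% GC and *Ctsg* 51.5%, the lowest of the early list, against 56.4% in *Mpo*, 57.7% in *Elane* and 60.7% in *Prtn3*. In the late list, *Padi4* (57.8%) and *Csf3r* (53.02%) were the richest. *S100a8* had 42.9%.

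With the GC trend of all genes subtracted, the medians between the wild-type bones were -1.05, -1.75, -1.01 and -1.03 for the early, specific, late and shared lists. Between the parietal bones they were 1.09, 1.01, 0.81 and 0.58. The early value is over 5 genes, since *Gfi1* had no GC value, and their median was 1.48 before the subtraction. The early list thus fell and the late list rose from 0.38, so the lists came nearer to each other. *Mpo* went from 2.57 to 2.12 and *Elane* from 2.37 to 1.82, while *S100a8* went from 0.17 to 0.76 and *Prtn3* from 1.48 to 0.78. Whether a GC-dependent step in making a library has a part in the difference between early and late genes was not tested further. The low level of the genes in wild-type parietal against frontal bone had nearly the same size with and without the subtraction.

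**Figure D3:**
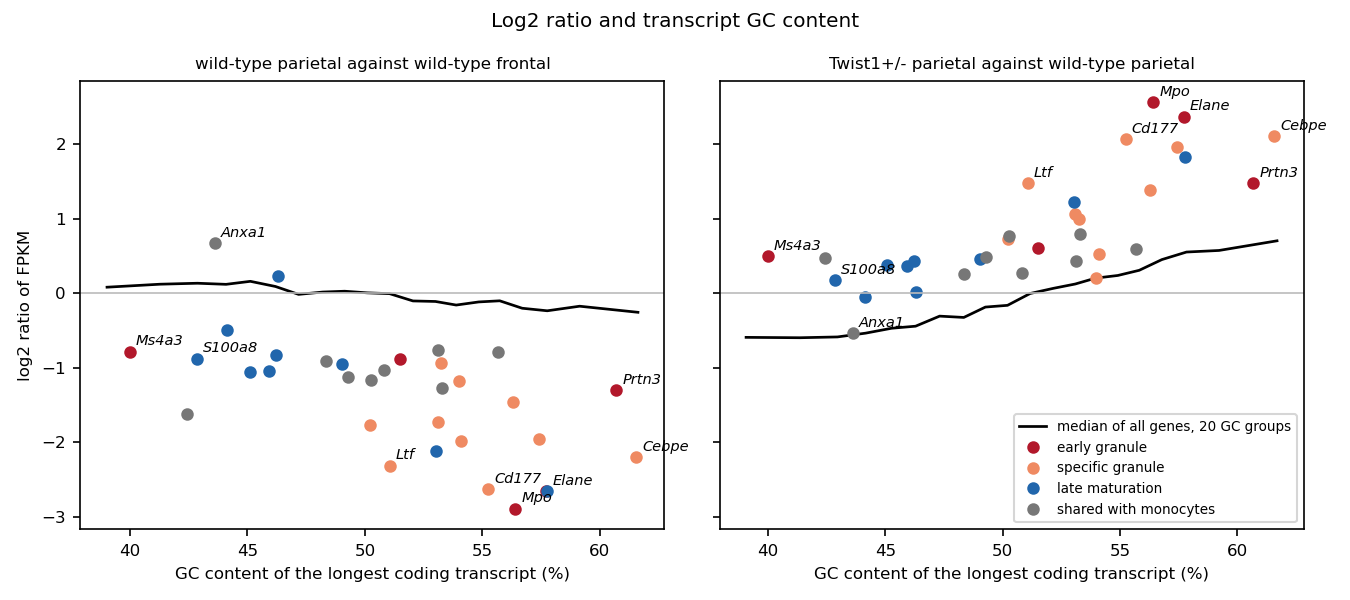
Log2 ratio of FPKM against GC content (%) of the longest coding transcript for 33 neutrophil genes (points coloured by stage list), with the median of all genes in 20 groups of GC content (line). The genes lie below the line between the wild-type bones except *Anxa1* and *Il1b*, and between the parietal bones they lie on or above it.

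Further neutrophil genes outside the 34 were read from lists of the same stages. Of 12 further specific granule genes, 1 was more than 3-fold lower between the wild-type bones and none higher, a share near the 9.2% of all genes. It was *Chil3*, a chitinase-like protein, at 309.8, 71.6, 332 and 148 FPKM. The list had medians of -1.03, 0.18, 0.10 and -0.67 in the comparisons of wild-type bones, parietal bones, frontal bones and *Twist1*+/- bones, in that order. *Mmp8*, neutrophil collagenase, was at 59.1, 24.7, 73.03 and 28.8 FPKM. By any amount 9 of the 12 were lower in wild-type parietal than frontal bone (50.5% of all genes) and 3 were higher. Between the parietal bones 8 were higher (46.9% of all genes) and 4 were lower. *Olfm4*, made by a subset of neutrophils, was among those that went the other way, at 10.8, 24.2, 13.8 and 3.20 FPKM. It was the only gene of these lists more than 3-fold lower in the library labelled *Twist1*+/- parietal than in wild-type parietal bone. Of 21 further late genes, 2 were more than 3-fold lower between the wild-type bones, again near the 9.2% of all genes. The medians were -0.72, 0.39, 0.22 and -0.80, over the 18, 16, 18 and 17 genes that reached 1 FPKM in either library. By any amount 16 of the 21 were lower and 5 higher in wild-type parietal than frontal bone. Between the parietal bones 14 were higher and 7 lower. *Cxcr2*, the chemokine receptor that draws neutrophils out of the marrow, was at 10.1, 3.92, 13.8 and 5.21 FPKM, low in both parietal libraries. *Mmp25*, a membrane-bound protease of mature neutrophils, was at 2.77, 0.755, 3.79 and 0.873 FPKM. Of 12 further early myeloid genes, 4 were more than 3-fold lower between the wild-type bones, against 9.2% of all genes, with medians of -0.37, 0.53, -0.12 and -0.14. By any amount 7 of the 12 were lower in wild-type parietal bone, against 50.5% of all genes, and 5 were higher. Among the higher genes was *Cd63*, at 605, 1436, 522 and 890 FPKM. *Myb*, a factor of dividing progenitors, was at 26.02, 4.80, 20.99 and 12.5 FPKM, and *Nkg7*, a granule membrane protein, at 24.9, 6.09, 19.5 and 16.4 FPKM. *Nkg7* is also a gene of the T and NK cell list below.

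Other cells of the marrow moved beside the neutrophil genes. *Ptprc*, the antigen CD45 on all white cells, was at 21.9, 9.89, 24.03 and 11.8 FPKM. Its log2 ratio between the wild-type bones was -1.14, against a median of -1.15 over the 34 neutrophil genes. Between the parietal bones its ratio was 0.26, against a median of 0.61 over these genes. Between the wild-type bones the erythroid list had a median of -2.18 (7 of 10 genes more than 3-fold lower), the B lineage list -1.61 (5 of 10), the T and NK cell list -1.75 (4 of 9) and the list of megakaryocytes and platelets -1.45 (4 of 8). Over all genes 9.2% were more than 3-fold lower. Of these lists 1, 2, 1 and 1 genes, in the same order, were higher in wild-type parietal than in wild-type frontal bone. Those of the B lineage list were *Vpreb1*, at 11.5, 21.7, 17.8 and 22.7 FPKM, and *Igll1*, at 22.9, 44.0, 24.9 and 24.9 FPKM. Between the parietal bones the medians of these lists were 0.91, 1.12, 1.17 and 0.71, and 0.97, 1.15, 1.07 and 0.34 with the GC trend subtracted. These medians were thus also low in wild-type parietal bone. The summed level of the megakaryocyte and platelet list went another way, at 428, 467, 407 and 281 FPKM, where *Pf4*, platelet factor 4, made up 132, 274, 133 and 118 FPKM. The basophil and mast cell list had a median of 2.64 between the wild-type bones but was mixed. In wild-type parietal bone 7 of its 10 genes were higher and 3 were lower. The lower genes were *Mcpt8*, at 7.03, 6.51, 10.9 and 10.6 FPKM, *Prss34* and *Gata2*. *Prss34* was at 9.85, 5.95, 13.5 and 15.5 FPKM and *Gata2* at 3.54, 1.42, 4.93 and 4.95 FPKM. The cell cycle list had a median of -1.03 between the wild-type bones and -0.23 between the parietal bones. With the GC trend subtracted these were -1.14 and 0.35, so the second changed direction.

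Monocyte and macrophage genes were mixed. Between the wild-type bones 10 of the 13 were higher in parietal bone and 3 were lower, and the list had medians of 0.75, -0.44, 0.00 and 0.23, with summed levels of 494, 864, 469 and 641 FPKM. With the GC trend subtracted the median between the parietal bones was -0.86. *Csf1r*, the receptor of macrophage colony-stimulating factor, was at 69.3, 121, 77.3 and 108 FPKM. *Mpeg1*, a pore-forming protein of macrophages, at 39.5, 20.01, 42.1 and 22.1 FPKM, and *Ccr2*, a chemokine receptor of monocytes, at 14.7, 10.1, 18.7 and 10.7 FPKM, had the order of the neutrophil genes, and *Cx3cr1* was the other gene lower in wild-type parietal bone. The summed level of the 8 osteoclast genes was highest in wild-type parietal bone, with values of 2261, 8496, 2753 and 5797 FPKM and a median of 1.64 between the wild-type bones. *Mmp9*, a gelatinase of both neutrophils and osteoclasts, was at 393, 747, 547 and 971 FPKM and followed the osteoclast genes in being higher in both parietal libraries. The 10 skeletal muscle genes summed to 124, 3765, 1448 and 1859.5 FPKM, so muscle RNA also differed between libraries. None of the measured genes of these lists was listed at 0 in any library. The part of these cells in the levels of genes shared with monocytes was not tested.

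**Figure D4:**
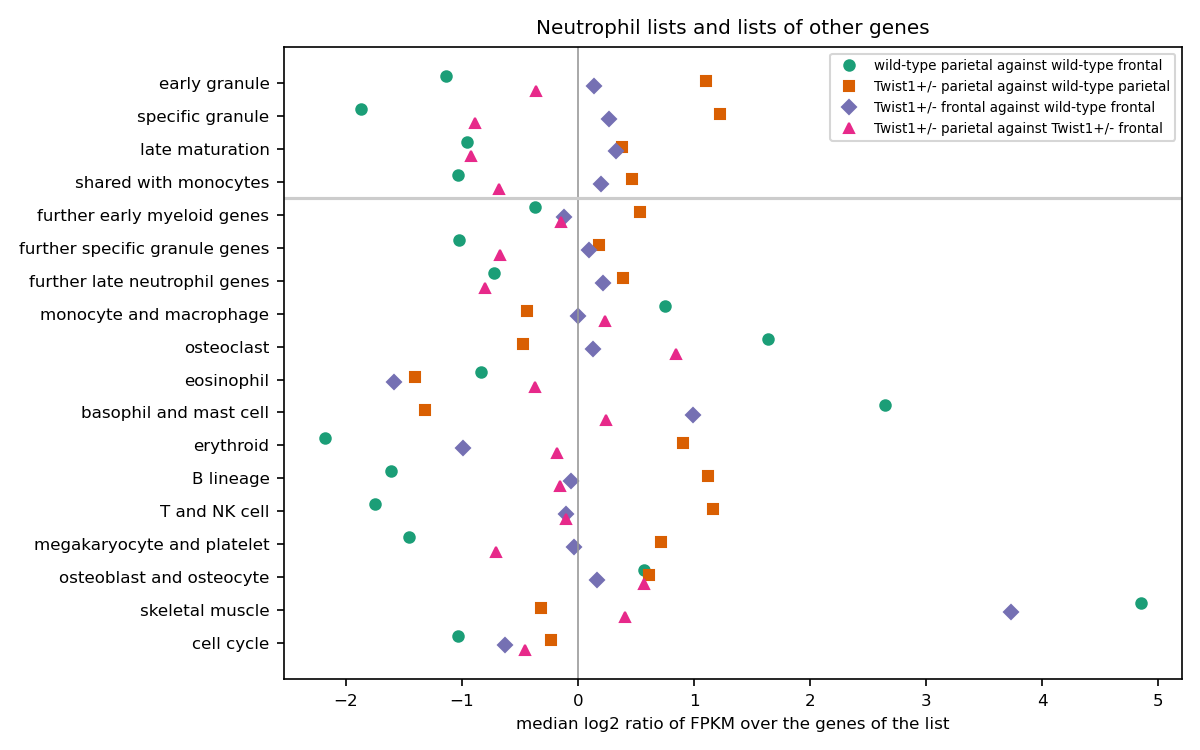
Median log2 ratio of FPKM over the genes of each list in the 4 comparisons, with the 4 neutrophil lists on top and lists of other genes below. Medians are over the genes that reached 1 FPKM in either library compared. Between the wild-type bones (circles), the neutrophil, eosinophil, erythroid, lymphoid and platelet lists lie below 0, while the mast cell, macrophage, osteoclast and osteoblast lists lie above it.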

How the data were processed

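Poly(A) RNA of 4 calvarial bone libraries was sequenced as stranded single-end reads of 75 bases. Per the labels and the methods of the study, the authors aligned the reads to mm9 with STAR 2.4.2a and obtained FPKM for each gene with Cuffdiff (Cufflinks 2.2.1), using the iGenomes annotation, and the deposited values are these FPKM. The scaling option is not given in the sources used here. FPKM hold no counts, so no interval or detection floor is given.

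Samples were grouped by genotype and bone as labelled. Ratios of FPKM were formed in 4 comparisons with Python 3.11.15 and pandas 2.3.3. A gene was called past 3-fold when its larger FPKM reached 1. A value of 0 counted as past the threshold when the other reached 1 FPKM. Medians of the other lists were taken over genes above 0 in both libraries that reached 1 FPKM in at least 1 of them. With 1 library per group no test was made. All members were named, and of each other list at most 3 genes per comparison, those with the largest absolute log2 ratio, besides *Twist1*, *Gapdh* and *Ptprc*. *Mmp8*, *Mmp9*, *Cxcr2*, *Csf1r*, *Mpeg1*, *Ccr2*, *Cx3cr1*, *Pf4*, *Mcpt8*, *Prss34* and *Igll1* were chosen after their values were seen. GC content, positions and shared 75-base windows came from GENCODE M1 on mm9, and promoters from RefSeq (GRCm38.p6). GC content was that of the longest coding transcript, and the GC trend was the median log2 ratio in 20 groups of genes. *Gfi1* had no GC value. The members and lists were chosen with earlier results of these data known. Pseudocounts, floors, thresholds, scaling and list membership were varied. The code of the calls was run on simulated data made from wild-type frontal bone. Of 200 genes changed 6-fold among 23946, 100% were recovered and 0 others were called. The change was set beyond the threshold, and the noise given to the other genes was small against it. The settings thus fixed this outcome, which checks the code and gives no error rate for single libraries.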

Additional observations from a re-analysis of the deposited data

Results flagged for a closer look

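The effect of the *Twist1*+/- label on late against early genes had opposite signs in the bones. The median log2 ratio of late minus early genes was 0.19 in frontal and -0.73 in parietal bone, a difference of -0.91. Read the other way, the effect of bone on late minus early genes was 0.18 in wild-type and -0.56 in *Twist1*+/- mice, a difference of -0.74. These differences use the same 4 libraries and are not independent of each other. They were not tested, since each group has 1 library. With the GC trend subtracted, over the 5 early genes with a GC value, the effect was 0.23 in frontal and -0.28 in parietal bone. The effect of bone was then 0.03 in wild-type and -0.07 in *Twist1*+/- mice.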

How the results depend on the processing

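No paired analysis was possible because each group has 1 library. Of 264 recomputed counts, medians and differences of late minus early genes, 251 kept their direction and stayed within 1.5-fold (on the log2 scale for medians), 13 moved further and 0 changed direction. Many could not move, as all 34 genes were at or above 1 FPKM and many counts were 0 in every setting. The bound was also wide against late minus early genes. With the GC trend subtracted, which leaves 5 early genes, 0.18 went to 0.03 between the wild-type bones and -0.73 to -0.28 between the parietal bones. Both counted as within the bound. With a 2-fold threshold, the genes lower in wild-type parietal than frontal bone numbered 21, those higher in the library labelled *Twist1*+/- parietal than in wild-type parietal bone 11, those higher in *Twist1*+/- than wild-type frontal bone 1, and those lower in *Twist1*+/- parietal than frontal bone 8. With an 8-fold threshold the first and second of these counts were 0. Between the parietal bones 10 genes were more than 3-fold higher after scaling to *Gapdh*, 11 after scaling to 10 reference genes and 3 after subtraction of the GC trend, against 6. The log2 ratios that these scalings subtract from every gene were -0.39 (*Gapdh*) and -0.54 (reference genes) between the parietal bones and 0.44 and 0.49 between the wild-type bones, so the early list went from 1.10 to 1.49 and 1.65 and from -1.13 to -1.58 and -1.62. With summed FPKM the early list was at -1.89 between the wild-type and 1.73 between the parietal bones, and late minus early genes at 0.96 and -1.48. Of 540 recomputed ratios of single genes, 26 crossed the 3-fold threshold and 0 of those past it changed direction. FPKM do not give the number of reads, and low genes such as *Padi4* and *Gfi1* rest on fewer reads than *S100a8*.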

Other observations

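All 9 genes of eosinophils, another granulocyte lineage, were lower in wild-type parietal than in wild-type frontal bone, as most neutrophil genes were. The median log2 ratio was -0.83 over the 7 of them that reached 1 FPKM in either library. The eosinophil genes differed from the neutrophil genes in the direction between genotypes, a difference that was not tested. Medians over 7 genes were -1.59 between the frontal and -1.40 between the parietal bones. By any amount all 9 were lower in *Twist1*+/- frontal than in wild-type frontal bone. In the library labelled *Twist1*+/- parietal 8 were lower than in wild-type parietal bone and 1 was higher. *Prg2*, the major basic protein, was at 154, 112, 51.2 and 52.1 FPKM, and *Epx*, eosinophil peroxidase, at 9.68, 5.41, 3.01 and 2.80 FPKM. Both were lower in the *Twist1*+/- libraries than in the wild-type library of the same bone. The ribonuclease genes *Ear1* and *Ear6* were at 28.1, 14.96, 3.58 and 2.36 FPKM and 25.1, 14.1, 4.005 and 3.37 FPKM, but these are copies of each other and reads may have been split between them. *Prg2* and *Epx* were chosen after their values were seen. The mast cell genes *Cma1* and *Tpsb2* were highest in wild-type parietal bone, *Cma1*, a chymase, at 2.22, 30.6, 5.62 and 12.2 FPKM and *Tpsb2*, a tryptase, at 2.90, 39.1, 7.81 and 18.3 FPKM.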
